A study of Homo sapiens with 18 samples.

Results

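The core of the transforming growth factor-β (TGF-β) pathway was described in 10 genes, namely the ligands TGFB1 and TGFB2, the receptors TGFBR1 and TGFBR2, the receptor-activated SMAD2 and SMAD3, the common SMAD4, the inhibitory SMAD6 and SMAD7, and SKIL, which encodes the SMAD corepressor SnoN. They were taken by symbol from the deposited expression tables, and all 10 were found among the 58302 genes listed. RNA was sequenced from 3 human lung cancer cell lines, EBC-1 with MET amplification and 2 with an EGFR exon 19 deletion, PC-9 and HCC827, each carrying either a lentiviral shRNA against the spleen tyrosine kinase SYK (shSYK) or a negative control (nc). There were 3 libraries in each of the 6 groups, 18 in all. A single shRNA sequence was used, so another sequence against SYK was not part of the comparison, and the labels do not say how the nc cells were made. The labels do not say whether the libraries of a group came from separate cultures, and p-values measure only the spread between these libraries.

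TGF-β ligands are secreted in a latent form and, once released, bind the type II receptor TGFBR2, which recruits and phosphorylates the type I receptor TGFBR1. The activated type I receptor phosphorylates SMAD2 and SMAD3, which enter the nucleus with SMAD4 and bind DNA at their target genes. SMAD6, SMAD7 and SnoN restrain the pathway, and all of them can be induced by signalling of the wider TGF-β and bone morphogenetic protein (BMP) family, which gives the pathway a feedback arm. In epithelial and carcinoma cells the pathway is best known for growth arrest and for driving the mesenchymal state. The study looked at TGF-β1 upstream of SYK, and the comparison here runs the other way, from a lowered SYK to the RNA of the pathway.

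Values are FPKM, fragments scaled by gene length and by a size for each library, as the authors computed them. The libraries held 7920099 to 15729103 reads on genes. The size recovered from the values was not that count, at 0.883 (PC-9 nc replicate 1) to 1.07 times it (EBC-1 shSYK replicate 3). In EBC-1 it was 0.969 to 1.008 times the reads in nc and 1.034 to 1.072 times in shSYK libraries, and a larger size lowers FPKM. In every line SYK itself was lower in each shSYK library than in each nc library, at 52.3%, 32.1% and 32.9% of the nc mean for EBC-1, PC-9 and HCC827 (limma adjusted p = 0.000271, 0.00733 and 0.000197). In PC-9 that p was 0.0513 without nc replicate 3 and 0.0638 without shSYK replicate 1. Epithelial markers (EPCAM, CDH1, KRT8, KRT18 and KRT19) summed to between 1137 and 4683 FPKM per library. That sum was lower in every shSYK than in every nc library of EBC-1 (1137 to 1192 against 1197 to 1434) and HCC827 (2591 to 3008 against 3147 to 3519), and its part in the results was not tested. Not every marker went that way. In EBC-1 the means of EPCAM (64.0 in nc and 75.0 in shSYK) and KRT8 (281 and 288) were higher, and those of CDH1, KRT18 and KRT19 lower. In HCC827 EPCAM (101 and 102) and KRT18 (537 and 548) were not lower, and CDH1, KRT8 and KRT19 were. The fibroblast markers (COL1A1, COL1A2 and PDGFRB) summed to 2.61 to 2.89 FPKM in nc and 1.82 to 2.37 in shSYK libraries of EBC-1, to 0.958 to 1.14 and 1.28 to 2.11 in HCC827, and to 5.49 to 8.37 and 6.16 to 7.61 in PC-9. These groups were apart in EBC-1 and HCC827, lower and higher in shSYK cells as TGFB2 and TGFBR2 were, and the part of that sum in the results was not tested. Most of the sum was COL1A1, which is also a target gene on the pathway list below. By itself COL1A1 did not change in any line (limma adjusted p = 0.262, 0.980 and 0.0964 for EBC-1, PC-9 and HCC827). PDGFRB averaged 0.462 FPKM in nc and 0.117 in shSYK cells of EBC-1. COL1A2 averaged at most 0.0240 FPKM in any group, and the 3 leukocyte markers summed to at most 0.203 FPKM in any library. The endothelial markers PECAM1 (13.4 FPKM in nc and 4.98 in shSYK cells) and CDH5 (2.42 and 2.38) were present in PC-9, and their part in the results was not tested. VWF, the other endothelial marker on the list, averaged only 0.124 FPKM in nc and 0.0825 in shSYK cells of PC-9. In PC-9, nc replicates 1 and 2 stood apart from each other, with summed FPKM of 342216 and 274907. In EBC-1, the mitochondrial share of reads was 2.23% to 2.51% in nc and 1.89% to 1.93% in shSYK libraries, and its part in the EBC-1 results was not tested. Rescaling the EBC-1 libraries to an equal sum moved the median log2 fold change of all genes by 0.11 and the share of rises among the changed genes from 51.7% to 67.9%, and in HCC827 that share went from 45.4% to 56.6%. From bulk RNA, fewer cells with a transcript and less transcript per cell cannot be told apart.

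In the nc cells, SMAD3 and TGFB1 were the most abundant of the 10 transcripts in all 3 lines, on the FPKM scale, which is per length. SMAD3 led in EBC-1 at 159.7 FPKM ± 4.02 (SD, n = 3) and in PC-9 at 56.3 ± 3.23, and in HCC827 TGFB1 at 32.8 ± 2.31 stood above SMAD3 at 26.8 ± 1.18. TGFBR2 came next in every line, and SMAD2 was last, at 0.572 ± 0.0762, 1.01 ± 0.155 and 0.920 ± 0.109 FPKM in EBC-1, PC-9 and HCC827. The length used for SMAD2 in the tables is 36366 bases, so a low FPKM there still rested on 210 to 504 reads per library. With the length of the MANE Select transcript of GENCODE v44 in its place, an alternative chosen after seeing the data, SMAD6 went from 3.40 to 7.61 FPKM (EBC-1), from 2.11 to 4.73 (PC-9) and from 5.69 to 12.7 (HCC827), since its length was 3828 in place of 8563 bases. The first 3 places and the last did not change with that length in any line. For SMAD2 that length was 34626 bases, near the 36366 used, so the change could hardly move its last place. In reads, SMAD2 in EBC-1 had 210 to 359 per library, where TGFBR1 had 57 to 199.

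Between lines, the tables were normalized separately, so the levels are given as a description with no test. TGFBR2 differed most, 8.36-fold between EBC-1 and PC-9, and SMAD3 came next, 5.97-fold between EBC-1 and HCC827. For both genes no nc library of a line overlapped with those of the next line in the order. SMAD6 was ordered HCC827, EBC-1, PC-9 and SMAD7 HCC827, PC-9, EBC-1, again without overlap between neighbours. The lines could not be ordered in full for the other 6 genes. For TGFB1 the nc libraries of EBC-1 and PC-9 overlapped, as did those of PC-9 and HCC827, and for TGFB2 those of PC-9 and HCC827 did. TGFBR1, SMAD2 and SMAD4 were lowest in EBC-1 and SKIL was lowest in HCC827, without overlap, while the other two lines overlapped in each of these genes.

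**Figure D1:**
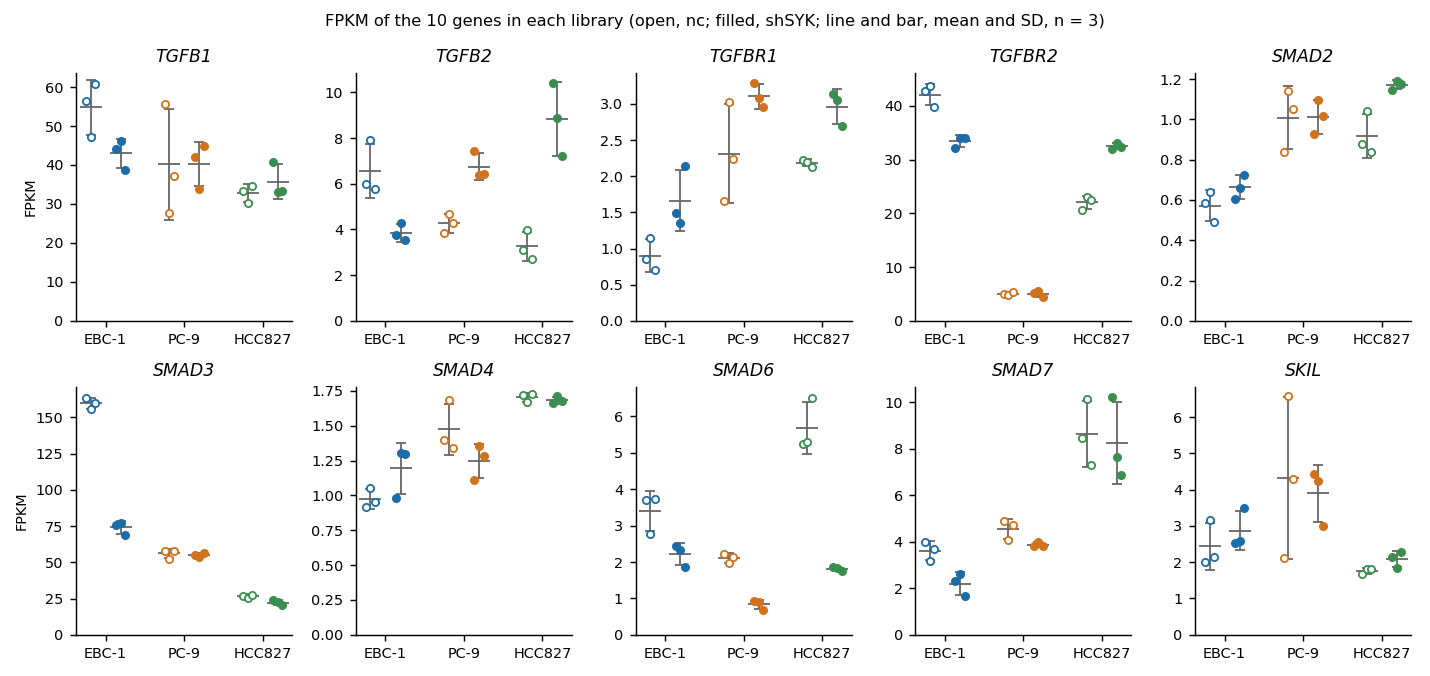
FPKM of the 10 genes in each of the 18 libraries. Each panel is a gene, with FPKM on the y axis from 0 and the cell lines on the x axis, open points for nc and filled points for shSYK, and the mean and SD (n = 3) drawn beside them. SMAD6 was lower in shSYK cells in all 3 lines, and TGFB2 was lower in EBC-1 and higher in PC-9 and HCC827.

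Each line was then compared between shSYK and nc cells with limma on log2(FPKM + 1), over the genes whose 6 libraries averaged at least 1 FPKM. A gene is said to have risen or fallen where its p, adjusted over all genes tested by the Benjamini-Hochberg method, was under 0.05. Log2 fold changes on this scale understate the change of a low gene. In EBC-1, 9 of the 10 genes were tested, 6 fell and 1 rose. Of all genes tested there, 44.7% changed, 23.1% upward and 21.6% downward. In PC-9, all 10 were tested, 1 rose and 1 fell, where 2.09% of all genes changed, 0.678% upward and 1.41% downward. In HCC827, all 10 were tested, 3 rose and 2 fell, where 38.0% of all genes changed, 17.2% upward and 20.7% downward. The median log2 fold change of the tested members was -0.34, -0.02 and 0.14 for EBC-1, PC-9 and HCC827, beside 0.0090, 0.0088 and -0.0053 over all genes tested. SMAD2 in EBC-1 had a mean under 1 FPKM and was not tested.

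The ligands took different courses. TGFB1 encodes the ligand TGF-β1. Its FPKM in EBC-1 was 56.4, 47.1 and 60.8 in nc and 44.1, 46.0 and 38.7 in shSYK libraries. All 3 shSYK libraries lay below the nc libraries, by a narrow margin against nc replicate 2. The log2 fold change was -0.34 (standard error, SE, 0.11, limma adjusted p = 0.0382), and once the trends with gene length and GC were taken out it was -0.04 (adjusted p = 0.553). Only 6 of its 16 alternatives passed the threshold, and it did not pass without nc replicate 1 or 3 or without any of the shSYK replicates (adjusted p from 0.0508 to 0.119). In GENCODE v44 TGFB1 shares 6.59% of its exon bases with HNRNPUL1 on the opposite strand. The sources do not say whether strand was used in counting, so their reads there cannot be told apart.

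In PC-9, TGFB1 was 55.7, 27.7 and 37.3 FPKM in nc and 42.0, 33.9 and 44.8 in shSYK libraries. The nc libraries spanned the whole shSYK range, and the 95% interval of the log2 fold change ran from -0.52 to 0.62. In HCC827 it was 33.5, 30.2 and 34.7 in nc and 40.9, 33.0 and 33.3 in shSYK libraries, which overlapped (log2 fold change 0.12, 95% interval -0.11 to 0.34, limma adjusted p = 0.369). After removal of the length and GC trends, TGFB1 in HCC827 passed the threshold at 0.32 (adjusted p = 0.0130).

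TGFB2, the gene of the ligand TGF-β2, moved in opposite directions in different lines. In EBC-1 it went from 5.98, 7.90 and 5.76 FPKM in nc to 3.76, 4.27 and 3.53 in shSYK libraries. The PC-9 libraries went from 3.83, 4.68 and 4.28 to 7.46, 6.38 and 6.43, and in HCC827 from 3.09, 3.97 and 2.72 to 10.4, 8.87 and 7.22. The groups did not overlap in any line, lower in EBC-1 and higher in PC-9 and HCC827. Non-overlap is common in these tables, in 29.7% of the tested genes upward and 27.2% downward in EBC-1, 11.4% and 12.3% in PC-9, and 24.7% and 27.6% in HCC827. On the log2 scale the change was -0.63 in EBC-1 (SE 0.12, limma adjusted p = 0.00508) and 1.21 in HCC827 (SE 0.14, adjusted p = 0.00107), and each passed the threshold in all 16 alternatives. In PC-9 it was 0.56 (SE 0.11, adjusted p = 0.0488), which passed in 7 of 16 alternatives. There the call was lost without nc replicate 3 or without any shSYK replicate (adjusted p from 0.180 to 0.236), and it was kept without nc replicate 1 (0.0328) or nc replicate 2 (0.0285).

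As a share of the summed FPKM of TGFB1, TGFB2 and TGFB3, TGFB2 made up 10.7% ± 3.04 in EBC-1 nc cells and 8.08% ± 0.349 in EBC-1 shSYK cells, 10.2% ± 3.89 and 14.3% ± 1.71 for PC-9, and 9.02% ± 2.20 and 19.6% ± 1.77 in HCC827 (SD, n = 3). TGFB1 was thus the larger part of that sum in every group, and the nc and shSYK shares separated without overlap in EBC-1 and HCC827 only. In GENCODE v44 TGFB2 shares 11.6% of its exon bases with the antisense gene TGFB2-AS1, which was looked at after its values were seen. The lengths used for FPKM were 557 bases for TGFB2-AS1 and 5151 for TGFB2, so the overlap as counted can differ. TGFB2-AS1 fell in EBC-1 (11.1, 11.5 and 9.74 FPKM in nc and 3.85, 5.06 and 4.49 in shSYK libraries, limma adjusted p = 0.000338) and rose in HCC827 (3.73, 4.89 and 2.33 and then 12.9, 14.01 and 8.06, adjusted p = 0.00409). The PC-9 values moved from 6.29, 7.41 and 6.54 to 10.2, 10.9 and 9.55 FPKM (adjusted p = 0.0488, past the threshold in 6 of 16 alternatives). The antisense gene had the direction of TGFB2 in each line. It had at most 85 reads in a library where TGFB2 had 115 to 537, and without strand the reads on shared bases cannot be told apart. In GENCODE v44 TGFB2 also shares 22.7% of its exon bases with TGFB2-OT1 on the same strand, which was listed at 0 FPKM.

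The stretch before the RefSeq start of TGFB2 is shown because the gene rose in one line and fell in another. It lies at chr1:218345086-218345335 (GRCh38.p14, plus strand), and capitals mark the CAGA box, CAGAC or its complement GTCTG, a short sequence bound by SMAD3 and SMAD4. The tables place the start of the TGFB2 model downstream of it, at position 218346235 of chromosome 1.
TGFB2: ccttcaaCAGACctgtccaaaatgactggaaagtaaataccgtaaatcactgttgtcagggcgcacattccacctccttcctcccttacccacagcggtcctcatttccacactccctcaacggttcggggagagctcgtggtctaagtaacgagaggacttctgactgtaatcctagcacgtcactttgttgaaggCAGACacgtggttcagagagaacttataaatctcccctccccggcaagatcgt
The letters occur 2 times, beginning 243 and 53 bases before the start. A CAGA box is common, found in 38.0% of 35116 RefSeq windows of the same 250 bases, and its presence is no evidence of binding. The window holds no GC box (GGGCGG or CCGCCC, the sequence bound by Sp1), no AP-1 site (TGACTCA or TGAGTCA) and no palindromic SMAD element (GTCTAGAC), found in 42.6%, 4.20% and 0.182% of all windows.

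Both receptors moved. TGFBR1, which encodes the type I receptor kinase, was higher after SYK knockdown in EBC-1, with 0.858, 1.14 and 0.706 FPKM in nc and 1.49, 1.35 and 2.14 in shSYK libraries (57 to 199 reads). In HCC827 it went from 2.22, 2.20 and 2.13 to 3.14, 3.05 and 2.69 FPKM. The groups did not overlap in either line. On the log2 scale the rise was 0.48 in EBC-1 (SE 0.15, limma adjusted p = 0.0349) and 0.31 in HCC827 (SE 0.08, adjusted p = 0.0168). In EBC-1 TGFBR1 passed the filter only through its shSYK libraries, and 8 of 15 alternatives passed the threshold, while the call was lost without nc replicate 1 or 3 or shSYK replicate 1 or 3 (adjusted p up to 0.107 among the left-out libraries). In PC-9 it was 1.66, 3.03 and 2.24 in nc and 3.29, 3.08 and 2.95 in shSYK libraries, which overlapped (log2 fold change 0.33, 95% interval -0.03 to 0.70, adjusted p = 0.366). With length and GC trends removed, the values in EBC-1 and HCC827 came to 0.14 each (adjusted p = 0.296 and 0.217). The HCC827 call was also lost without shSYK replicate 1 (0.0520) or 2 (0.0591), and it held in 11 of 15 alternatives.

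TGFBR2, the gene of the ligand-binding type II receptor, fell in EBC-1 and rose in HCC827. Its FPKM was 42.8, 43.6 and 39.8 in nc and 32.1, 34.1 and 34.0 in shSYK libraries of EBC-1. In HCC827 it was 20.7, 23.0 and 22.4 in nc and 32.0, 33.1 and 32.4 in shSYK libraries. In PC-9 it was 4.99, 4.79 and 5.32 in nc and 5.17, 5.55 and 4.36 in shSYK libraries. The groups were fully apart in EBC-1 and HCC827 and intermingled in PC-9. The shSYK means were 33.4 FPKM ± 1.12 in EBC-1 and 32.5 ± 0.544 in HCC827, from separately normalized tables. All genes summed to 247177 to 253541 FPKM in EBC-1 and 324098 to 342264 in HCC827 shSYK libraries. The nearness of the 2 means is therefore not read as a like level. The log2 fold change was -0.32 in EBC-1 (SE 0.07, limma adjusted p = 0.00657) and 0.54 in HCC827 (SE 0.06, adjusted p = 0.000595). In PC-9 it was -0.01, with a 95% interval from -0.26 to 0.24 (adjusted p = 0.990). The HCC827 call held in all 16 alternatives, and the EBC-1 call in 15, with an adjusted p of 0.0522 after rescaling to an equal sum.

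Of the receptor-activated SMADs, SMAD3 carried the largest change of any of the 10 genes in EBC-1. There it went from 164, 156 and 159.7 FPKM in nc to 76.0, 77.1 and 69.1 in shSYK libraries, on 8216 to 20571 reads. Every shSYK library held less than the lowest nc library by a wide margin, and the mean came to 46.4% of that in nc. The log2 fold change was -1.10 (SE 0.07, limma adjusted p = 6.92e-05), and it passed the threshold in all 16 alternatives, between -1.13 and -0.97. In HCC827 SMAD3 went from 27.0, 25.5 and 27.8 FPKM to 23.98, 22.3 and 20.2. The groups were apart there too, but the fall was smaller, at -0.26 (SE 0.07, adjusted p = 0.0252). This call held in 10 of 16 alternatives, and was lost without nc replicate 1 or 3 or shSYK replicate 2 or 3 (adjusted p up to 0.0731). In PC-9 the values were 58.1, 52.5 and 58.1 in nc and 55.3, 53.9 and 56.2 in shSYK libraries, which overlapped (log2 fold change -0.03, 95% interval -0.26 to 0.21, adjusted p = 0.943).

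The 250 bases before the MANE Select start of SMAD3 are shown because of the size of this fall, at chr15:67065352-67065601 (GRCh38.p14, plus strand), with GC boxes in capitals.
SMAD3: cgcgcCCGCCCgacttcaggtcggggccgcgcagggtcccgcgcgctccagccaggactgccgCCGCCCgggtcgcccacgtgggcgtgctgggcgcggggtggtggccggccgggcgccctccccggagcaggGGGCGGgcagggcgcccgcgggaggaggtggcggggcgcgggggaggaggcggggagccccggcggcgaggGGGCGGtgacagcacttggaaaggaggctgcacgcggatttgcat
The window has 80.8% G or C and holds 4 GC boxes, beginning 245, 187, 116 and 45 bases before the start. No CAGA box, AP-1 site or palindromic SMAD element is found in it. A GC box is found in 42.6% of all windows, and its presence is no evidence of binding. GC boxes also lie before the starts of TGFB1, TGFBR2 and SMAD6, which fell in EBC-1 as well. They lie too before those of SMAD2, SMAD4 and SKIL, which passed the threshold in no line tested. The SMAD3 model used for FPKM starts upstream of the window, at position 67063763 of chromosome 15.

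SMAD2, the partner of SMAD3 downstream of the TGF-β receptors, passed the threshold in neither line in which it was tested. In HCC827 it was 0.879, 1.04 and 0.837 FPKM in nc and 1.15, 1.19 and 1.18 in shSYK libraries, without overlap, with a log2 fold change of 0.18 (SE 0.10, limma adjusted p = 0.196). With limma-voom on recovered reads this was 0.41 (adjusted p = 0.00260), and with length and GC trends removed it was -0.06. In PC-9 it was 0.838, 1.14 and 1.05 in nc and 0.927, 1.10 and 1.02 in shSYK libraries, and in EBC-1 it was 0.586, 0.640 and 0.490 and then 0.605, 0.661 and 0.726, with overlap in both lines. SMAD4, the partner of all receptor-activated SMADs, was between 0.917 and 1.73 FPKM in the 18 libraries and passed in no line. Its groups overlapped in each, with log2 fold changes of 0.15, -0.14 and -0.01 in the order EBC-1, PC-9, HCC827 (limma adjusted p = 0.318, 0.650 and 0.928). The 95% intervals reached from -0.12 to 0.42, from -0.41 to 0.14 and from -0.20 to 0.17. SMAD4 in EBC-1 and SMAD2 in HCC827 had nc means under 1 FPKM and passed the filter through their shSYK libraries.

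The inhibitory SMAD6, which acts mainly on BMP receptors and SMAD1 and SMAD5, was the one member that fell in all 3 lines. In EBC-1 it went from 3.69, 2.77 and 3.74 FPKM in nc to 2.45, 2.34 and 1.87 in shSYK libraries. The PC-9 libraries went from 2.23, 1.96 and 2.15 to 0.921, 0.888 and 0.690, and in HCC827 from 5.23, 5.31 and 6.51 to 1.86, 1.82 and 1.75. No shSYK library reached an nc library of its line. In nc cells HCC827 stood above EBC-1, while shSYK cells had 2.22 FPKM ± 0.308 in EBC-1 and 1.81 ± 0.0532 in HCC827. These levels come from separately normalized tables, and their order was not tested. The shSYK mean was 65.2%, 39.4% and 31.9% of the nc mean for EBC-1, PC-9 and HCC827. Its log2 fold changes were -0.45 in EBC-1 (SE 0.12, limma adjusted p = 0.0210), -0.77 in PC-9 (SE 0.11, adjusted p = 0.0235) and -1.24 in HCC827 (SE 0.09, adjusted p = 0.000184). Of the 10030 genes tested in all 3 lines, 36 fell in each, which is 0.359%.

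The fall of SMAD6 kept its direction in every alternative in every line. It passed the threshold in 15 of 15 alternatives in HCC827, 11 of 15 in EBC-1 and 9 of 15 in PC-9. In EBC-1 the call was lost without nc replicate 1 (adjusted p = 0.0748), nc replicate 3 (0.0736) or shSYK replicate 3 (0.0635), and with no filter (0.0714). In PC-9 it was lost without nc replicate 3 (0.155) or without shSYK replicate 1, 2 or 3 (0.118, 0.136 and 0.122), and under a replicate block (0.0546) or no filter (0.0822), and it was kept without nc replicate 1 (0.0228) or nc replicate 2 (0.0221). In PC-9 the shSYK mean of SMAD6 was 0.833 FPKM, and the gene passed the filter through its nc libraries. Between 60 and 601 reads per library lay on SMAD6.

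The 250 bases before the start of SMAD6 are shown for this shared fall, at chr15:66701986-66702235 (GRCh38.p14, plus strand). Capitals mark GC boxes and the palindromic SMAD element GTCTAGAC.
SMAD6: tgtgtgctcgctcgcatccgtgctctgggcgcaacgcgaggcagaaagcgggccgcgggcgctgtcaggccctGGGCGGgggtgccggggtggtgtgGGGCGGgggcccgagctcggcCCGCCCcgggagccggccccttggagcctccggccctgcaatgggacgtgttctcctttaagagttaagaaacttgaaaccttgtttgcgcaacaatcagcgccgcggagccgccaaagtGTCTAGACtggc
GC boxes begin 177, 153 and 132 bases before the start. The palindrome begins 12 bases before it, reads the same on both strands and overlaps with none of the other motifs searched. It was found in 64 of 35116 RefSeq windows, and in none of the windows before the MANE Select starts of the other 9 genes. A match is a stretch of letters only, and no binding was measured.

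SMAD7, which blocks the TGF-β type I receptor, fell in EBC-1. The FPKM there was 3.99, 3.17 and 3.70 in nc and 2.32, 2.62 and 1.67 in shSYK libraries, without overlap, on 84 to 203 reads. This was a log2 fold change of -0.54 (SE 0.13, limma adjusted p = 0.0136). The call held in 12 of 15 alternatives, and was lost without nc replicate 1 (adjusted p = 0.0526), with no filter (0.0537) and with length and GC trends removed (-0.29, adjusted p = 0.0578). In PC-9, SMAD7 was 4.91, 4.08 and 4.70 in nc and 3.82, 3.99 and 3.82 in shSYK libraries. These did not overlap, yet the log2 fold change of -0.19 (95% interval -0.41 to 0.04) had an adjusted p of 0.404. In HCC827 it was 8.47, 10.1 and 7.29 in nc and 10.2, 7.64 and 6.87 in shSYK libraries, which overlapped (log2 fold change -0.06, 95% interval -0.42 to 0.29, adjusted p = 0.763).

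SKIL did not pass the threshold in any line, with log2 fold changes of 0.18, -0.04 and 0.16 in EBC-1, PC-9 and HCC827 (limma adjusted p = 0.376, 0.972 and 0.190). In PC-9 the nc libraries alone ran from 2.11 to 6.58 FPKM, the former in nc replicate 1 and the latter in nc replicate 2, around 4.44, 4.24 and 3.00 in shSYK libraries. In HCC827 the groups were apart, at 1.67, 1.81 and 1.80 in nc and 2.13, 1.85 and 2.28 in shSYK libraries. In EBC-1 they overlapped, at 1.99, 3.17 and 2.14 and then 2.53, 2.58 and 3.49. The 95% intervals reached 0.54, 0.66 and 0.37 at their upper ends.

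**Figure D2:**
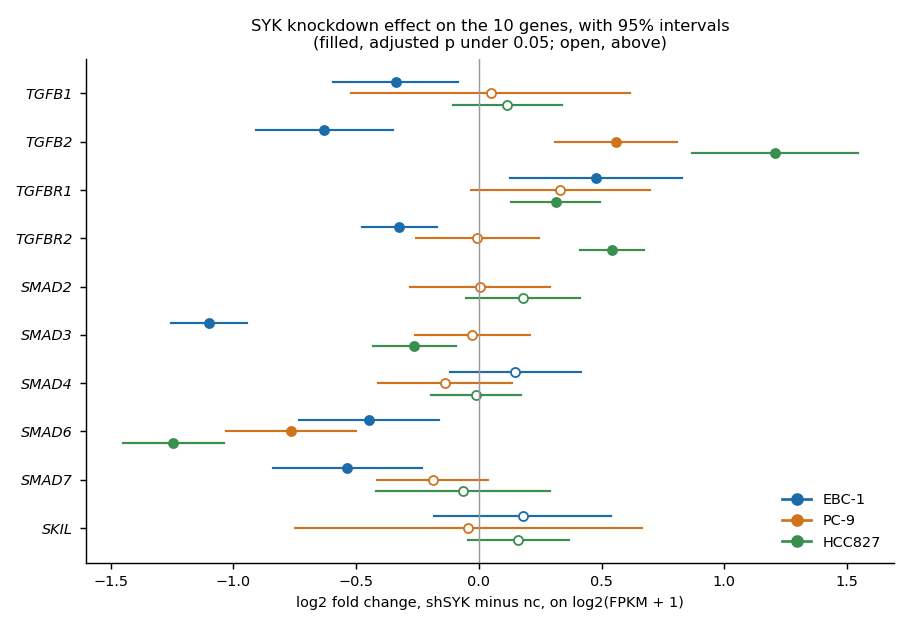
Effect of SYK knockdown on each of the 10 genes. The x axis is the log2 fold change, shSYK minus nc, on log2(FPKM + 1), with 95% intervals as lines and 1 row for each gene and colour for each cell line, filled where the limma adjusted p was under 0.05. TGFB2 and TGFBR2 lie left of 0 in EBC-1 and right of 0 in HCC827, and SMAD6 lies left of 0 in all 3 lines.

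Whether a response differed between lines was tested as a difference of the shSYK minus nc effects in a limma fit of all 18 libraries. The level of each table drops out only in part, since 1 was added to FPKM before the log. The effect in a line where a gene is low is thus understated more. Of 30 differences (10 genes over 3 pairs of lines), 8 passed an adjusted p of 0.05, and they fell on TGFB2, TGFBR2, SMAD3 and SMAD6. Of all genes, 18.3% passed for EBC-1 against PC-9, 20.6% for EBC-1 against HCC827 and 7.63% for PC-9 against HCC827. The effect on TGFB2 was lower in EBC-1 than in HCC827 by 1.84 (log2 difference -1.84, SE 0.19, limma adjusted p = 8.39e-06) and than in PC-9 (-1.19, SE 0.19, adjusted p = 0.000615). The effect on SMAD3 was lower in EBC-1 than in PC-9 (-1.07, SE 0.10, adjusted p = 3.62e-06) and than in HCC827 (-0.84, SE 0.10, adjusted p = 2.46e-05).

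The effect on TGFBR2 differed between EBC-1 and HCC827 (-0.87, SE 0.10, limma adjusted p = 2.84e-05), between PC-9 and HCC827 (-0.55, adjusted p = 0.00333) and between EBC-1 and PC-9 (-0.32, adjusted p = 0.0435). The last of these passed in 7 of 27 alternatives only, and the other two in all 27. The fall of SMAD6 was larger in HCC827 than in EBC-1 (0.80, SE 0.15, adjusted p = 0.00116), in all 26 alternatives. For PC-9 against HCC827, TGFB2 (-0.65, adjusted p = 0.0537) and SMAD6 (0.48, adjusted p = 0.0595) did not pass, nor did SMAD6 for EBC-1 against PC-9 (0.32, adjusted p = 0.146). They passed in 7, 4 and 4 alternatives. For TGFB2 these were quantile normalization, removal of the length and GC trends, the filter at 5 FPKM, and leaving out EBC-1 nc replicate 2, PC-9 nc replicate 1, HCC827 nc replicate 2 or HCC827 shSYK replicate 3 (adjusted p from 0.0236 to 0.0450). SMAD6 for PC-9 against HCC827 passed with the trends removed and without EBC-1 nc replicate 2, EBC-1 shSYK replicate 3 or PC-9 nc replicate 1 (0.0327 to 0.0497). SMAD6 for EBC-1 against PC-9 passed with a pseudocount of 0.1, rescaling to an equal sum, removal of the trends and limma-voom (0.0118 to 0.0440), with 0.83 in the last. The differences of TGFB1, TGFBR1, SMAD2, SMAD4, SMAD7 and SKIL did not pass for any pair. For EBC-1 against PC-9, SMAD4 (0.29, adjusted p = 0.0863) passed after rescaling to an equal sum (0.0478), with limma-voom (0.61, adjusted p = 0.0439) and without EBC-1 shSYK replicate 1 (0.0389), and TGFB1 (-0.39, adjusted p = 0.336) passed without PC-9 nc replicate 1 (-0.65, adjusted p = 0.0233). Their 95% intervals still allowed sizeable differences, from -1.02 to 0.11 for TGFB1 between EBC-1 and HCC827.

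The wider pathway was read from a list of 62 further genes, of which 47, 48 and 44 were tested for EBC-1, PC-9 and HCC827. In EBC-1 13 rose and 17 fell, in PC-9 3 rose and 2 fell, and in HCC827 11 rose and 14 fell. Their median log2 fold change was -0.11, -0.04 and 0.0011, beside 0.0090, 0.0088 and -0.0053 over all genes tested. The share changed stands beside 44.7%, 2.09% and 38.0% of all genes tested in EBC-1, PC-9 and HCC827, and no theme is read from it. The counts of each group of the list below stand beside the same shares.

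Among the other ligands, EBC-1 had 1 rise and 2 falls in 4 tested, PC-9 1 fall in 5 and HCC827 2 falls in 4. GDF15, a stress-induced member of the family, fell in EBC-1 from 543, 511 and 485 FPKM in nc to 84.5, 107 and 87.6 in shSYK libraries (log2 fold change -2.46, limma adjusted p = 2.19e-05). In HCC827 it fell from 30.1, 32.6 and 51.3 to 7.29, 7.07 and 12.2 (-1.98, adjusted p = 0.00115). In PC-9 the groups were apart too (-0.88, adjusted p = 0.128). BMP4, a BMP ligand, rose in EBC-1 from 22.8, 18.1 and 22.0 to 38.3, 38.2 and 43.1 FPKM (0.90, adjusted p = 0.000657) and fell in PC-9 from 3.33, 3.43 and 3.70 to 1.71, 1.67 and 2.30 (-0.64, adjusted p = 0.0450, past the threshold in 9 of 15 alternatives). Without nc replicate 3 or any shSYK replicate the PC-9 call of BMP4 was lost (adjusted p from 0.0941 to 0.224).

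Genes of latency and activation hold the secreted ligand in its inactive form or release it. Of 8 tested in EBC-1, 2 rose and 5 fell, in PC-9 1 of 8 fell, and in HCC827 1 of 7 rose and 2 fell. LTBP3, a latent TGF-β binding protein, fell in EBC-1 from 126, 106 and 122.5 FPKM to 25.1, 28.6 and 17.3 (log2 fold change -2.30, limma adjusted p = 0.000149) and in HCC827 from 23.2, 22.1 and 25.5 to 15.2, 13.3 and 15.8 (-0.65, adjusted p = 0.00123). LTBP1 of the same family fell in EBC-1 (-0.54, adjusted p = 0.000671) and in PC-9 (-0.54, adjusted p = 0.0499, past the threshold in 7 of 15 alternatives). Its PC-9 call was lost without any library but nc replicate 1 (adjusted p from 0.0558 to 0.242). ITGB6, the β6 integrin chain that activates latent TGF-β, rose in EBC-1 from 5.16, 5.88 and 5.001 to 13.5, 13.2 and 16.2 FPKM (1.27, adjusted p = 0.000170). FURIN, the protease that cleaves the TGF-β precursor, rose in EBC-1 (0.61, adjusted p = 0.00489) and fell in HCC827 (-0.49, adjusted p = 0.00486).

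Of the other receptors, 2 of 6 tested rose in EBC-1, 1 rose and 1 fell of 5 in HCC827, and 0 of 6 changed in PC-9, where limma also found 0 at an unadjusted p under 0.05 and limma-voom found 0. Of the other SMADs and adaptors, 1 of 3 changed in EBC-1. There 0 of 3 changed in PC-9 and 0 of 3 in HCC827 by limma, with 0 in each at an unadjusted p under 0.05 and 0 in each by limma-voom. Inhibitors and corepressors were split, with 4 rises and 5 falls in 12 tested in EBC-1, 4 and 3 in 11 in HCC827, and 0 changed of 12 in PC-9, where 1 had an unadjusted p under 0.05 and limma-voom called 1. NOG, the BMP antagonist noggin, fell in EBC-1 from 57.4, 49.8 and 54.4 FPKM to 20.01, 21.4 and 20.4 (log2 fold change -1.34, limma adjusted p = 5.44e-05). TGIF2, a transcriptional corepressor, fell in EBC-1 (-0.34, adjusted p = 0.00497) and rose in HCC827 (0.33, adjusted p = 0.0158). PMEPA1, a TGF-β-induced gene whose product restrains SMAD2 and SMAD3, fell in EBC-1 (-0.47, adjusted p = 0.00190). It rose in HCC827 from 8.94, 8.83 and 6.77 to 21.7, 13.6 and 11.3 FPKM (0.81, adjusted p = 0.0222). That call was lost without nc replicate 3 (0.0659) and with no filter (0.0861). In PC-9 PMEPA1 was lower in shSYK cells without overlap of the groups, but did not pass (-0.74, adjusted p = 0.0595).

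Among target genes, 3 rose and 5 fell of 14 tested in EBC-1, 3 of 14 rose in PC-9, and 5 rose and 6 fell of 14 in HCC827. Of all genes tested, 44.7%, 2.09% and 38.0% changed in these lines, and 0.678% rose in PC-9. SNAI2, which encodes the mesenchymal transcription factor Slug, was the one listed gene that rose in all 3 lines, as did 0.160% of the genes tested in all of them. It went from 2.01, 1.54 and 1.69 FPKM to 2.72, 2.25 and 4.003 in EBC-1, from 0.658, 1.01 and 1.04 to 2.24, 2.23 and 1.83 in PC-9, and from 1.26, 0.425 and 0.547 to 4.09, 2.86 and 2.20 in HCC827. The groups were apart in each line. The nc means were 0.906 FPKM in PC-9 and 0.743 in HCC827, so there SNAI2 passed the filter only through its shSYK libraries. With no filter its adjusted p was 0.115, 0.141 and 0.0271 for EBC-1, PC-9 and HCC827. The log2 fold changes were 0.52, 0.71 and 1.22 (limma adjusted p = 0.0348, 0.0480 and 0.00507), and 8, 6 and 15 of 15 alternatives passed the threshold in EBC-1, PC-9 and HCC827. The call was lost in EBC-1 without any library but shSYK replicate 2 (adjusted p from 0.0534 to 0.0887), and in PC-9 without nc replicate 3 or any shSYK replicate (0.148 to 0.236).

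CTGF, a matricellular protein and TGF-β target, fell in EBC-1 from 7.85, 7.41 and 7.32 to 2.99, 3.40 and 3.02 FPKM (log2 fold change -1.05, limma adjusted p = 0.000115) and rose in HCC827 from 1.18, 1.38 and 0.675 to 4.62, 3.98 and 4.07 (1.34, adjusted p = 0.000573). TGFBI, a secreted matrix protein named for its induction by TGF-β, fell in EBC-1 (-0.38, adjusted p = 0.00460) and HCC827 (-0.40, adjusted p = 0.00543) and rose in PC-9 from 23.4, 18.2 and 21.0 to 33.3, 35.8 and 37.8 FPKM (0.75, adjusted p = 0.0319). That rise passed in 10 of 16 alternatives, and was lost without nc replicate 3 or any shSYK replicate (0.143 to 0.180).

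The ID genes encode inhibitors of differentiation that answer chiefly to BMP signalling. In HCC827, ID1 fell from 369, 355 and 429 FPKM to 71.2, 89.4 and 111 (log2 fold change -2.09, limma adjusted p = 0.000197), and ID2 from 20.1, 23.3 and 25.2 to 6.85, 5.50 and 8.10 (-1.62, adjusted p = 0.000255). ID3 fell in HCC827 as well (-1.05, adjusted p = 0.000112), and it rose in EBC-1 (0.74, adjusted p = 0.000726). In PC-9 neither ID1 nor ID3 passed, though the groups of each were apart. There ID3 was higher in shSYK cells (0.80, adjusted p = 0.0884) and ID1 lower (-0.67, adjusted p = 0.129). CDKN2B, the cell cycle inhibitor p15 induced by TGF-β, rose in HCC827 from 4.87, 4.57 and 4.53 to 11.02, 9.38 and 7.88 FPKM (0.87, adjusted p = 0.00116). Genes called in opposite directions in EBC-1 and HCC827 were 3.26% of the 10691 tested in both lines, and on the pathway list they were FURIN, TGIF2, PMEPA1, CTGF and ID3, with TGFB2 and TGFBR2 among the members.

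**Figure D3:**
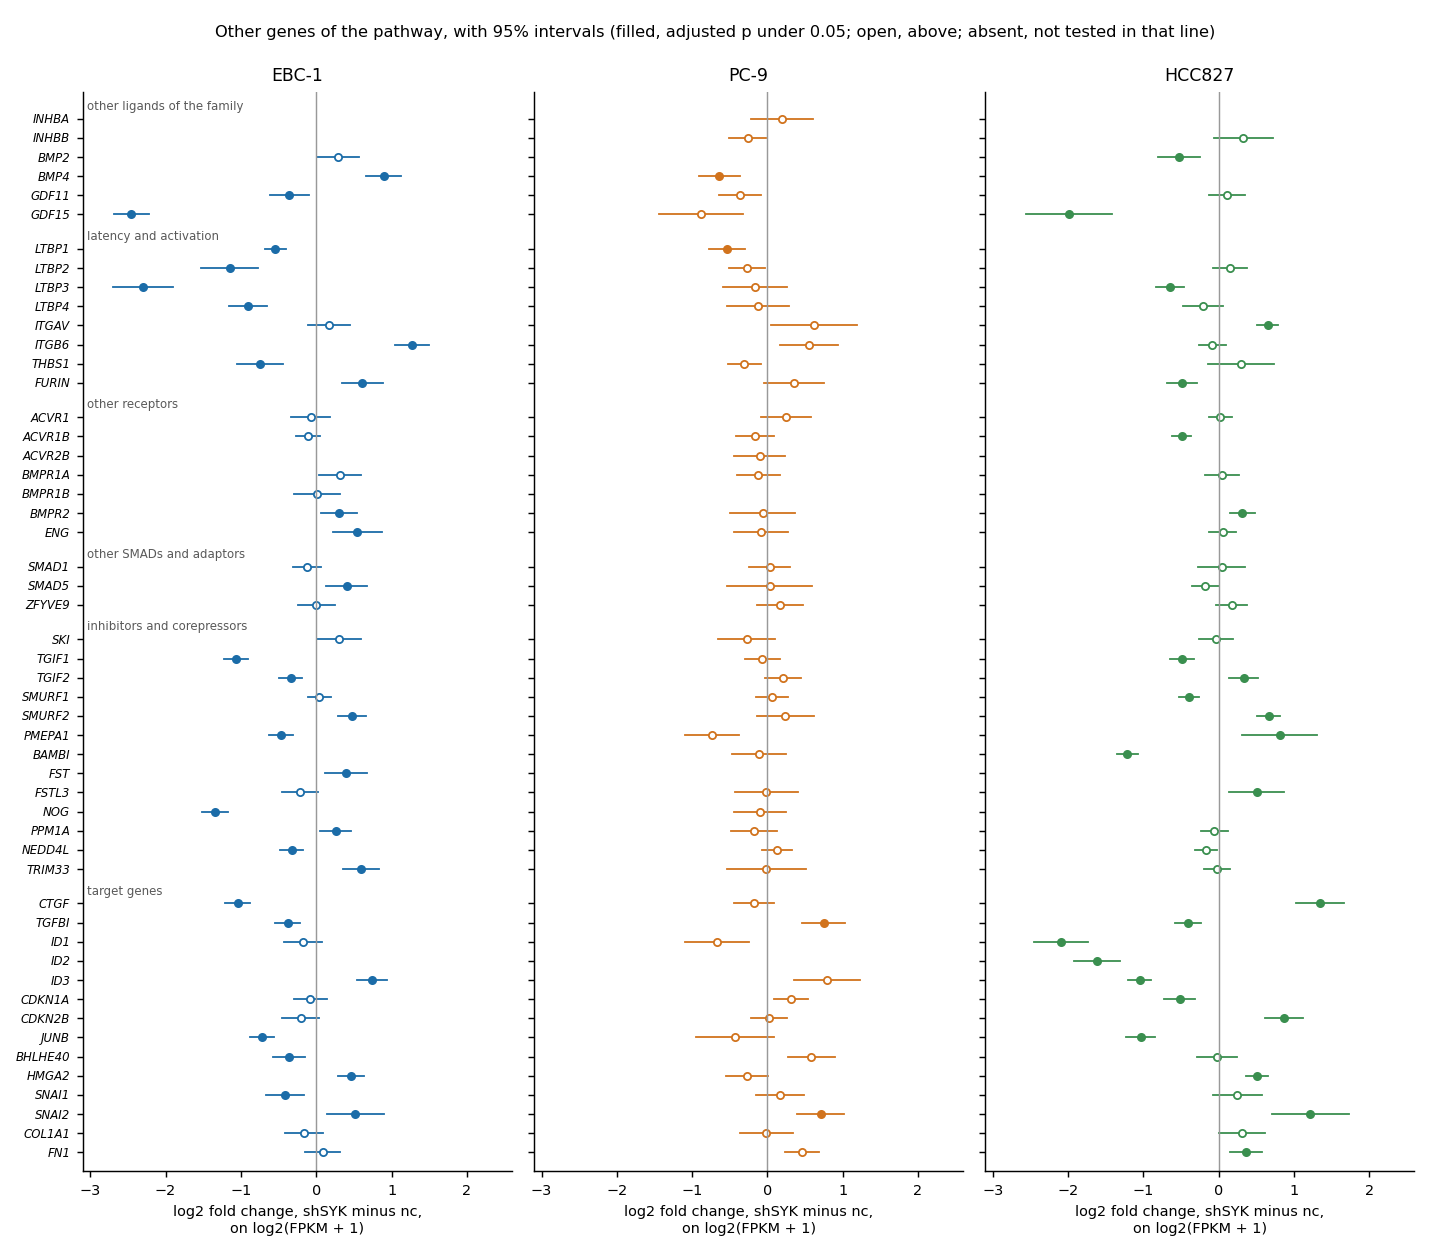
Effect of SYK knockdown on 51 listed pathway genes tested in at least 1 line, ordered by role. The x axis of each panel is the log2 fold change, shSYK minus nc, on log2(FPKM + 1), lines are 95% intervals and filled points have a limma adjusted p under 0.05. EBC-1 and HCC827 show rises and falls in most groups, and in PC-9 4 points are filled.

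For TGFB1 and SMAD3, the genes most alike in level over the 18 libraries were taken among 10029 others with a mean of at least 1 FPKM in every line, by Pearson's r of log2(FPKM + 1). For TGFB1 these were P3H1 (r = 0.923), CUEDC2 (0.901) and NAGPA (0.893). For SMAD3 they were AGBL5 (0.986), PI4K2A (0.985) and CKAP4 (0.982). CKAP4 had 112 FPKM in nc and 48.3 in shSYK cells of EBC-1, 40.7 and 41.3 in PC-9, and 25.8 and 21.7 in HCC827. The libraries fall into 6 groups from 3 lines and tables, and the points of a group share their line and table, so the values are a description.

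**Figure D4:**
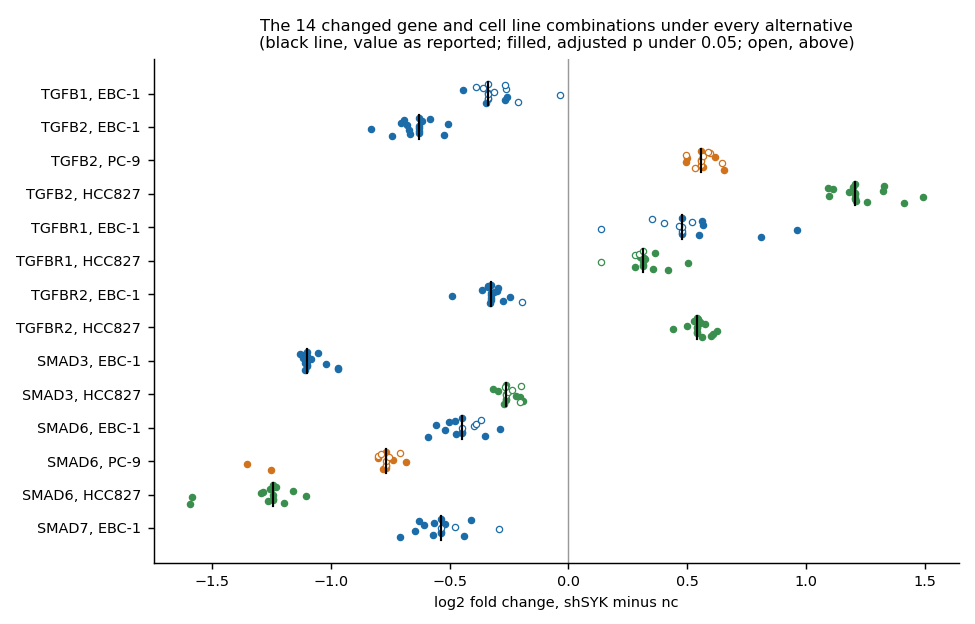
The 14 combinations of gene and cell line that changed, under every alternative. The x axis is the log2 fold change, shSYK minus nc, the black line is the value as reported, and each point is an alternative, filled where its adjusted p was under 0.05. All points of a combination lie on the same side of 0, and the points of TGFB2 and SMAD3 in EBC-1 and of TGFB2, TGFBR2 and SMAD6 in HCC827 are all filled.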

How the data were processed

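RNA of 18 libraries (3 per group, nc and shSYK, in EBC-1, PC-9 and HCC827) was extracted with TRIzol and sequenced on an Illumina HiSeq system, and the methods state alignment to hg38. The submitters' processing notes name CASAVA, HISAT2 and the builds GRCh37, GRCh38, hg19 and hg38 without roles. The counting program, strand setting and annotation release are not given in the sources used here. The authors deposited FPKM for 58302 Ensembl genes in 1 table per line, and no column was left without a sample (0 columns). Of 57532 genes also in GENCODE v44, 99.96% overlapped their hg38 position there. Reads per gene were recovered from FPKM times gene length, 100% of them within 0.01 of a whole number, and cover counting error only.

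The shSYK and nc libraries of a line were compared on log2(FPKM + 1) by limma 3.58.1 (R 4.3.3), with a variance trend, for genes with a mean of at least 1 FPKM. Benjamini-Hochberg adjustment ran over all genes tested, at 0.05. Effects were compared between lines as contrasts in a fit of all 18 libraries. The script was tested on simulated data. Alternatives tried were equal sums (TPM), quantile normalization, a pseudocount of 0.1, filtering at 5 FPKM or not at all, no variance trend, the 18-library fit, a replicate block, each library left out, limma-voom on recovered reads, and removal of length and GC trends (lowess, span 0.3). Tables and figures used Python 3.11.15, pandas 2.3.3, numpy 2.4.6 and matplotlib 3.10.9. Replicates differed beyond sampling noise (chi-square over degrees of freedom 2.11 to 38.7), so none was a duplicate. Promoter windows came from RefSeq (GRCh38.p14), found for all 10 genes, and motifs were searched on both strands. No protein sequence was used here.

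The 10 genes, the 62 pathway genes and the marker lists were chosen with earlier results of these data known. All 10 members and SYK are named. From the pathway list, genes are named that changed in the same direction in all 3 lines or in opposite directions in any pair of lines, and per line the 3 largest changes in each direction without overlap of the groups. The 3 genes most correlated with TGFB1 and with SMAD3 are named as well. A gene of the pathway list that this rule names is not reported here, though it is in the counts.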

Additional observations from a re-analysis of the deposited data

Results flagged for a closer look

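Groups of 3 libraries are too small for an outlier test, and no file was left outside the comparisons. What stood out were 8 of 30 differences between cell lines in the effect of SYK knockdown, each tested as a difference (limma, 18 libraries). Of all genes, 18.3% passed for EBC-1 against PC-9, 20.6% for EBC-1 against HCC827 and 7.63% for PC-9 against HCC827. For TGFB2 the log2 difference was -1.84 for EBC-1 minus HCC827 (adjusted p = 8.39e-06, between -2.16 and -1.71 over 27 alternatives) and -1.19 for EBC-1 minus PC-9 (adjusted p = 0.000615). For TGFBR2 it was -0.87 for EBC-1 minus HCC827 (adjusted p = 2.84e-05), -0.55 for PC-9 minus HCC827 (adjusted p = 0.00333) and -0.32 for EBC-1 minus PC-9 (adjusted p = 0.0435, and from 0.00558 to 0.344 over 27 alternatives, of which 7 passed). For SMAD3 it was -1.07 for EBC-1 minus PC-9 (adjusted p = 3.62e-06) and -0.84 for EBC-1 minus HCC827 (adjusted p = 2.46e-05). For SMAD6 it was 0.80 for EBC-1 minus HCC827 (adjusted p = 0.00116), a smaller fall in EBC-1. TGFB2 and TGFBR2 were lower in all 3 shSYK libraries than in all 3 nc libraries of EBC-1 and higher in all 3 of HCC827. Such non-overlap was found in 27.2% of all genes tested downward in EBC-1 and 24.7% upward in HCC827.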

How the results depend on the processing

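Over 274 alternatives to the 29 member effects, leave-one-out apart, 238 kept direction and side of the threshold, 23 lost the call, 2 gained it and 11 changed sign, the last only in effects that had not passed. With length and GC trends removed, the log2 fold change was -0.22 for SMAD4 and -0.25 for SKIL in EBC-1, -0.046 for SMAD2 in PC-9, and -0.062 for SMAD2, 0.10 for SMAD7 and -0.039 for SKIL in HCC827. After rescaling to an equal sum it was -0.015 for SMAD2 in PC-9 and 0.028 for SMAD4 in HCC827, with limma-voom -0.0089 and 0.051, and after quantile normalization 0.0056 for TGFBR2 in PC-9. The cause was not tested.

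The 7 members changed in EBC-1 became 5 after rescaling to an equal sum, where TGFB1 (-0.21, limma adjusted p = 0.0974) and TGFBR2 did not pass. They became 6 in the 18-library fit, 4 with length and GC trends removed and 3 with no filter. They became 4 with a filter at 5 FPKM, where TGFBR1, SMAD6 and SMAD7 were not tested. The 5 in HCC827 became 3 with that filter. The 2 in PC-9 became 1 after rescaling to an equal sum, with no variance trend, with limma-voom and with the filter at 5 FPKM, and 0 with no filter or with the replicate block. The 5 pathway genes in PC-9 became 9 after rescaling, 9 after quantile normalization, 8 with limma-voom, 13 with the trends removed, 1 with no filter, 2 with the filter at 5 FPKM and 16 in the 18-library fit. The 253 changed genes in PC-9 became 491, 505, 480, 913, 47 and 1513 after rescaling, quantile normalization, limma-voom, removal of the trends, no filter and the 18-library fit, and the 5562 in EBC-1 became 3579 with the filter at 5 FPKM.

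Leaving out 1 library gave 3 to 7 members in EBC-1 (3 without nc replicate 1, and 4 without nc replicate 3 or shSYK replicate 3), 0 to 2 in PC-9 (2 without nc replicate 1 or 2, and 0 without nc replicate 3 or any shSYK replicate) and 3 to 5 in HCC827 (3 without shSYK replicate 2). It gave 22 to 33, 1 to 10 and 23 to 25 pathway genes and 3802 to 6292, 8 to 624 and 3365 to 3974 changed genes in EBC-1, PC-9 and HCC827 (in PC-9, 500 to 624 genes without nc replicate 1 or 2 and 8 to 20 without any other library), and 4 to 5 members with a difference between lines. Members whose sign changed then were, in PC-9, TGFB1 (-0.19 to 0.31), TGFBR2 (-0.069 to 0.076), SMAD2 (-0.058 to 0.052) and SKIL (-0.39 to 0.26), and SMAD7 in HCC827 (-0.21 to 0.045).

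The replicate numbers share only a number. Deviations of same-numbered nc and shSYK libraries correlated between -0.22 and 0.03 in EBC-1, -0.12 and 0.33 in PC-9, and 0.0017 and 0.06 in HCC827, and in no line did every library correlate best with its own number. With the replicate block, 5, 0 and 5 members, 26, 1 and 26 pathway genes and 4326, 172 and 4111 genes changed in EBC-1, PC-9 and HCC827, and 4 members differed between lines. In EBC-1 TGFB1 (adjusted p = 0.0895) and TGFBR1 (0.0781) and in PC-9 TGFB2 (0.0992) and SMAD6 (0.0546) did not pass under the block. At 57 to 203 reads per library for TGFBR1 and SMAD7 in EBC-1, depth limits how small a change can be seen.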
